A study of Homo sapiens with 6 samples.

Results

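The S100 calcium-binding proteins are a family of small cytosolic proteins, and 10 of its genes were followed here: S100A2, S100A3, S100A4, S100A6, S100A8, S100A9, S100A11, S100A13, S100A16 and S100P. They were taken from the table by gene name and are 10 of the 58735 genes in the count table. RNA had been sequenced from MDA-MB-231 cells, a triple-negative breast cancer (TNBC) cell line that lacks the estrogen and progesterone receptors. The parent group held 3 libraries of wild-type MDA-MB-231 cells, and the ADRr group held 3 libraries of Adriamycin (ADR, doxorubicin)-resistant cells derived from the same line. Both were grown in DMEM with fetal bovine serum. ADRr cells came from a selection in rising concentrations of ADR, after which clones of single cells were taken by limiting dilution, so that they stand for clonal descendants rather than for a whole resistant population. The sources used here do not give the ADR concentration, if any, in the medium at harvest. The series text mentions 3 time points that no sample label names, and the 3 libraries of each group were taken as replicates. Nothing in the labels says that they came from separate cultures, and the p-values therefore measure only the spread between these libraries, which may be technical.

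S100 proteins fold into a pair of calcium-binding loops called EF-hands and work mostly as dimers. When calcium rises, a dimer opens a hydrophobic surface that grips partner proteins such as annexins and myosin. Some members are also released from cells and act on receptors such as RAGE and TLR4, and in breast cancer the family is known for its links to motility, metastasis and inflammation. The coding sequences of the 10 genes spanned 90 (S100A6) to 114 (S100A9) residues. Of the 10 genes, 9 lie in a cluster on chromosome 1 and S100P lies on chromosome 4.

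Totals ranged from 15983985 to 18272314 counts a library, at which a floor of 3 counts equals 0.164 to 0.188 CPM, the count scaled to the library total. Counting error alone is covered by this floor. The MDA-MB-231 markers vimentin (VIM), CD44 and moesin (MSN) stood at 66.5 to 146 mean FPKM in both groups, where FPKM is the fragment count scaled to gene length and library size. Estrogen receptor (ESR1) had at most 1 count in a library, progesterone receptor (PGR) had 0 counts in every library, and E-cadherin (CDH1) had a mean of 2.34 FPKM in parent and 1.12 FPKM in ADRr cells.

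The start regions of 4 members are shown because S100A16 and S100A2 had the largest changes of the family in opposite directions, while S100A9 and S100A8 were at the detection floor. Each sequence holds the 250 bases before the first listed RefSeq start (GRCh38.p14), read 5′ to 3′ on the strand of the gene. Capitals mark a match to 1 of 4 patterns searched on both strands, which were AP-1 (TGANTCA), STAT (TTCNNNGAA), NF-κB (GGANNTTCC) and C/EBP (TTNCNNAA).
S100A16 (chr1:153613138-153613387, minus strand): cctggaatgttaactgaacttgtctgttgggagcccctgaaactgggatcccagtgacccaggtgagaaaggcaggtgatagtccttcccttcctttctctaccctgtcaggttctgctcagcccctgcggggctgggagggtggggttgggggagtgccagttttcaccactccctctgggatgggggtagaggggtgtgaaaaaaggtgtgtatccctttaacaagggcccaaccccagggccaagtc
S100A2 (chr1:153565845-153566094, minus strand): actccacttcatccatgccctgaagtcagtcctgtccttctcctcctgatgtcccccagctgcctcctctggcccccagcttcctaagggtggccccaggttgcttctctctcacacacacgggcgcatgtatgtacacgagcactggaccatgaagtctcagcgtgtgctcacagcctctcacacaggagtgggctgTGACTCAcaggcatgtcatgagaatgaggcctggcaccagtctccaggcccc
S100A9 (chr1:153357604-153357853, plus strand): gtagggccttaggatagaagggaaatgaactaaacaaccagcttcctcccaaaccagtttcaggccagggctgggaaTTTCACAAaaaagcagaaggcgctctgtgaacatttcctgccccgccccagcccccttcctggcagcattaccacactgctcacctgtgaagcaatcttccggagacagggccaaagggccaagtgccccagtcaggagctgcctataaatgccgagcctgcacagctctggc
S100A8 (chr1:153391189-153391438, minus strand): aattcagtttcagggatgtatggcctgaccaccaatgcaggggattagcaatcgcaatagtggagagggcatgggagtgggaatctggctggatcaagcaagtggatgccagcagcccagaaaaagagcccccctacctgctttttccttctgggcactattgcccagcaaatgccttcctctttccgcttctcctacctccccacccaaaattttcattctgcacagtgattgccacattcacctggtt
The window of S100A2 held an AP-1 match 52 bases before the start, and the window of S100A9 held a C/EBP match 173 bases before it. No pattern matched in the windows shown for S100A16 and S100A8. Among windows of the same length before 35095 RefSeq starts, the AP-1 pattern was found in 6.57%, the STAT pattern in 6.57%, the NF-κB pattern in 3.85% and the C/EBP pattern in 33.2%. The STAT and C/EBP patterns can share bases. All 10 members matched a RefSeq entry, with 16 windows in all. Of these, the window of S100A3 had both an AP-1 match 225 bases and a STAT match 100 bases before its start. C/EBP matches were also found in windows of S100A6, S100A11, S100A13 and S100P, and in those of later starts of S100A8 and S100A16. No member window held the NF-κB pattern. A match describes the letters of a window and is not a binding site, and the absence of one says nothing about the factor.

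The S100 transcripts of ADRr cells were not moved in a single direction. Genes were tested with the quasi-likelihood test of edgeR and Benjamini-Hochberg adjustment over the 15242 genes that had enough counts, and a call needed an adjusted p no larger than 0.05 together with a 1.2-fold or larger change. S100A3, S100A11, S100A13 and S100A16 rose, S100A2 and S100A4 fell, and S100A6 was not called. S100A8, S100A9 and S100P had at most 2 counts in a library and were not tested. Of the 7 members tested, 4 were thus called higher, beside 29.2% of all tested genes, and 2 were called lower, beside 29.6%. Called in either direction were 58.8% of all tested genes. For 6 of these 7 members the libraries of each group lay apart, beside 69.2% of all tested genes. The median log2 fold change was 0.35 over the 7 members and -0.0061 over all tested genes. In RNA from a whole culture, a smaller share of cells that use a gene and less RNA of that gene in each cell cannot be told apart.

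**Figure D1:**
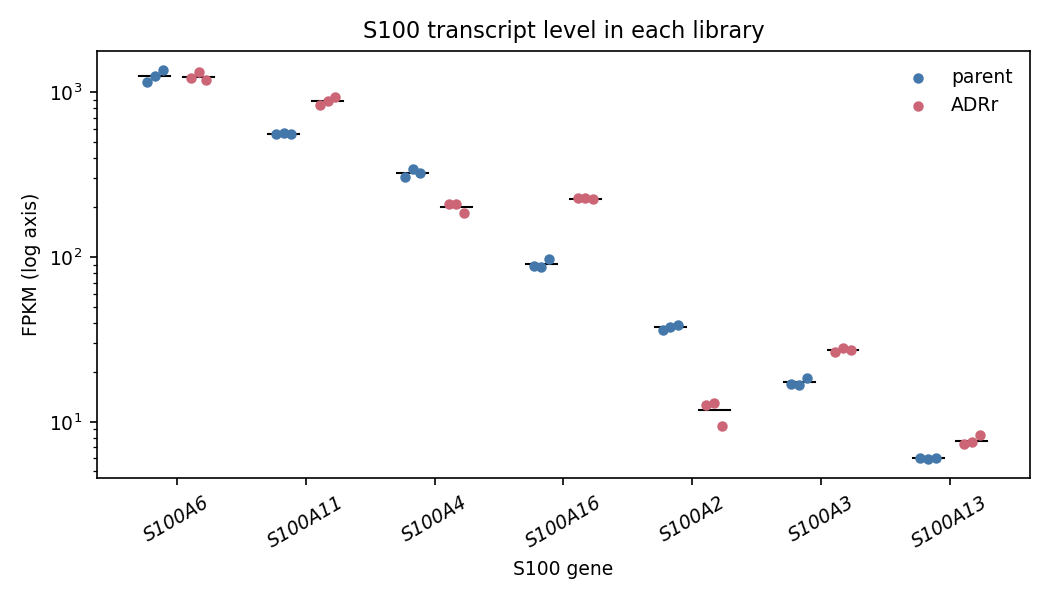
FPKM (log axis) of the 7 detected S100 members in each of the 3 parent (blue) and 3 ADRr (red) libraries, with a black line at each group mean. The groups are apart for every gene shown except S100A6, and the largest distances are those of S100A16 and S100A2.

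S100A16, a widely expressed member that is unusual in binding little calcium, had the largest increase of the 10 genes. Its counts were 2528, 2397 and 2980 in parent replicates 1 to 3 and 7059, 6446 and 7100 in ADRr replicates 1 to 3. Every ADRr library was above every parent library, and the ADRr values lay close together. The mean level was 90.7 ± 5.72 FPKM in parent cells and 226 ± 1.44 FPKM in ADRr cells (SD, n = 3 each). This was a 2.48-fold increase, a log2 fold change of 1.31 (SE 0.053, edgeR adjusted p = 1.3e-15). The gene (ENSG00000188643) lies on the minus strand at chr1:153606886-153613145, and 88.4% of tested genes had a smaller absolute log2 fold change.

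S100A11, which binds annexin A1 and takes part in membrane repair and growth control, was the second most abundant member in both groups. The counts were 6405, 6196 and 6817 in parent libraries and 10476, 9980 and 11859 in ADRr libraries. All parent libraries agreed within a narrow range, with 559 ± 3.91 FPKM, and all ADRr libraries were higher, with 885 ± 48.2 FPKM (SD, n = 3 each). The increase was 1.58-fold, or 0.66 on the log2 scale (SE 0.049, edgeR adjusted p = 4.9e-11). S100A11 (ENSG00000163191) is on the minus strand at chr1:152032506-152047907, apart from the rest of the members.

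S100A3, known from the hair cuticle and for binding zinc strongly, had a lower level than S100A11 and rose by a similar factor. It stood above 81.5% of tested genes by FPKM in parent cells and above 89.0% in ADRr cells. Parent libraries held 273, 259 and 316 counts, and ADRr libraries held 465, 449 and 486. The highest parent library was thus well below the lowest ADRr library. Its level went from 17.3 ± 0.903 FPKM to 27.3 ± 0.776 FPKM (SD, n = 3 each). The fold change was 1.57, or 0.65 on the log2 scale (SE 0.091, edgeR adjusted p = 1.5e-06). The gene (ENSG00000188015, chr1:153547329-153549372, minus strand) lies within the span of S100A4, but the annotation gives them no exonic base in common.

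S100A13, which is known for carrying FGF1 and interleukin-1 alpha out of the cell, had the smallest change among the members called. Counts were 227, 214 and 242 in parent and 296, 278 and 341 in ADRr libraries. Each ADRr library was above each parent library, but by a modest step. Mean levels were 6.03 ± 0.0515 FPKM and 7.69 ± 0.511 FPKM (SD, n = 3 each), a 1.27-fold increase. The log2 fold change was 0.35 (SE 0.10, edgeR adjusted p = 0.0049), and over the alternatives tried the adjusted p lay between 0.0025 and 0.036. This value is uncertain, because 24.2% of the exonic bases of S100A13 (ENSG00000189171, chr1:153618787-153631360, minus strand) are shared with AL162258.1 on the same strand. With S100A1 on the opposite strand included, 33.5% are shared. AL162258.1 had 0 counts in every parent library and 1, 2 and 3 counts in ADRr libraries, and S100A1 had 7 to 16 counts a library. How reads of the shared bases were assigned was not tested. The strand setting of the counting is not given in the sources used here, so reads of S100A13 and of S100A1 may not be told apart there.

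S100A2, a member first described as lost in breast tumor cells, fell the most. Counts in parent replicates 1 to 3 were 954, 957 and 1092, and in ADRr replicates 1 to 3 they were 365, 341 and 276. All ADRr libraries were well below all parent libraries. Mean FPKM was 37.5 ± 1.41 in parent cells and 11.7 ± 1.97 in ADRr cells (SD, n = 3 each), a 3.21-fold difference. The log2 fold change was -1.68 (SE 0.096, edgeR adjusted p = 5.9e-13), larger in size than that of 93.3% of tested genes. S100A2 (ENSG00000196754, chr1:153561108-153567890, minus strand) stood above 92.3% of tested genes by FPKM in parent cells and above 73.2% in ADRr cells.

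S100A4, also called metastasin, binds nonmuscle myosin and is known for promoting motility and metastasis. It fell in ADRr cells, from counts of 5306, 5695 and 5961 to counts of 3950, 3606 and 3529. No ADRr library reached the level of a parent library. Mean FPKM was 324 ± 18.9 in parent cells and 202 ± 14.8 in ADRr cells (SD, n = 3 each), a 1.61-fold decrease. The log2 fold change was -0.69 (SE 0.059, edgeR adjusted p = 6.3e-10). Despite the decrease, S100A4 (ENSG00000196154, chr1:153543613-153550136, minus strand) was above 99.2% of tested genes by FPKM in ADRr cells.

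S100A6, or calcyclin, which binds the ubiquitin-ligase adaptor CACYBP, was the most abundant member in each library. Its counts were 19014, 19720 and 23783 in parent libraries and 21661, 21452 and 21477 in ADRr libraries. The highest and the lowest value were both parent libraries, so that the groups overlapped. Mean levels were 1257 ± 102 FPKM and 1243 ± 70.4 FPKM (SD, n = 3 each), above 99.9% of tested genes in both groups. The log2 fold change was -0.02 (SE 0.055, edgeR adjusted p = 0.748) with a 95% interval from -0.14 to 0.09. A fold change of 1.2, or 0.263 on the log2 scale, is outside this interval in both directions. Its sign had no fixed direction, with 0.041 when parent replicate 3 was left out, 0.012 when ADRr replicate 3 was left out and 0.0055 with library size alone as the scale. S100A6 (ENSG00000197956, chr1:153534599-153536244, minus strand) shares 23 exonic bases with BX470102.1 on the opposite strand.

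S100A8 and S100A9 form calprotectin, the zinc- and manganese-binding complex that neutrophils and monocytes hold in large amounts and release in inflammation. S100A8 (ENSG00000143546, chr1:153390032-153391188, minus strand) had 0 counts in all parent libraries and 0, 0 and 1 counts in ADRr libraries. S100A9 (ENSG00000163220, chr1:153357854-153361027, plus strand) had 0 counts in all parent libraries and 2, 0 and 0 counts in ADRr libraries. Both were thus at or under the floor of 3 counts in each library, and neither was detectable in either group at this depth. S100P (ENSG00000163993, chr4:6693069-6697170, plus strand), which binds ezrin and is known from placenta and pancreatic cancer, had 1 count in each parent library and 1, 0 and 2 counts in ADRr libraries. No fold change is given for these 3 genes.

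Since S100A8 and S100A9 are abundant in myeloid cells, 11 myeloid markers were read beside them. Of the defining markers, TYROBP was at 0 in each library, PTPRC (CD45) had counts of 0, 0 and 2 in parent and 0, 0 and 1 in ADRr libraries, and LYZ had at most 1 count. CD53 had 0 counts in parent and 4, 1 and 3 counts in ADRr libraries, and the integrin gene ITGAM had 0 counts in parent and 6, 6 and 7 counts in ADRr libraries. The summed level of all 11 markers was 4.94 to 7.57 CPM in parent and 5.58 to 6.66 CPM in ADRr libraries, nearly all of it CD14. Without CD14 the sums were 0 to 0.112 CPM and 0.432 to 0.821 CPM, with 8 of the 11 markers at 0 in all parent libraries and 5 at 0 in all ADRr libraries.

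S100A16 ranked above S100A4, and S100A3 above S100A2, only in ADRr cells when the members were ordered by FPKM. FPKM is divided by gene length and so allows a rough comparison between genes. The length used counts all annotated exonic bases of a gene, which can differ from the transcript that the cells make. An order that rests on a small ratio is therefore uncertain. In parent cells the order of mean FPKM was S100A6, S100A11, S100A4, S100A16, S100A2, S100A3 and S100A13. In ADRr cells it was S100A6, S100A11, S100A16, S100A4, S100A3, S100A2 and S100A13. For these 7 genes, no library of a member overlapped with a library of the member next in order in the same group. The narrowest step was that from S100A16 to S100A4 in ADRr cells, a ratio of 1.12, and the widest was that from S100A4 to S100A3 in the same cells, a ratio of 7.38. S100P, S100A9 and S100A8 came last in both groups, and their order was not resolved in either, since all were under the floor.

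The order changed by 2 exchanges of neighbors, S100A16 with S100A4 and S100A3 with S100A2, which were picked out after the values were seen. The FPKM of S100A16 divided by that of S100A4 was 0.287, 0.254 and 0.301 in parent libraries and 1.08, 1.08 and 1.21 in ADRr libraries. Its mean went from 0.281 ± 0.0245 to 1.12 ± 0.0781 (SD, n = 3 each). For S100A3 over S100A2 the ratio was 0.470, 0.444 and 0.475 in parent libraries and 2.09, 2.16 and 2.89 in ADRr libraries. Both ratios were below 1 in each parent library and above 1 in each ADRr library. These ratios carry no test, since they combine the changes tested above.

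The summed S100 transcripts differed between the groups by less than most single members did. All S100 genes together, which adds 11 further genes to the members, held 2485, 2627 and 2732 CPM in parent libraries and 2727, 2866 and 2697 CPM in ADRr libraries. The ADRr values lay at the upper end of the parent values and overlapped with them. The mean was 2615 ± 124 CPM in parent and 2764 ± 90.3 CPM in ADRr cells (SD, n = 3 each), a ratio of 1.06 (two-sided exact permutation test, p = 0.3). With 3 libraries against 3 the smallest possible p is 0.1, so that neither a change nor its absence can be read from these p-values. By the sum of FPKM the ratio was 1.08 (exact permutation p = 0.1), with every ADRr library above every parent library, and on the TMM-scaled library size it was 1.04 (exact permutation p = 0.4). The 10 members alone held 2198 ± 121 CPM in parent and 2525 ± 87.0 CPM in ADRr cells, a ratio of 1.15 (exact permutation p = 0.1), and here too every ADRr library was above every parent library.

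**Figure D2:**
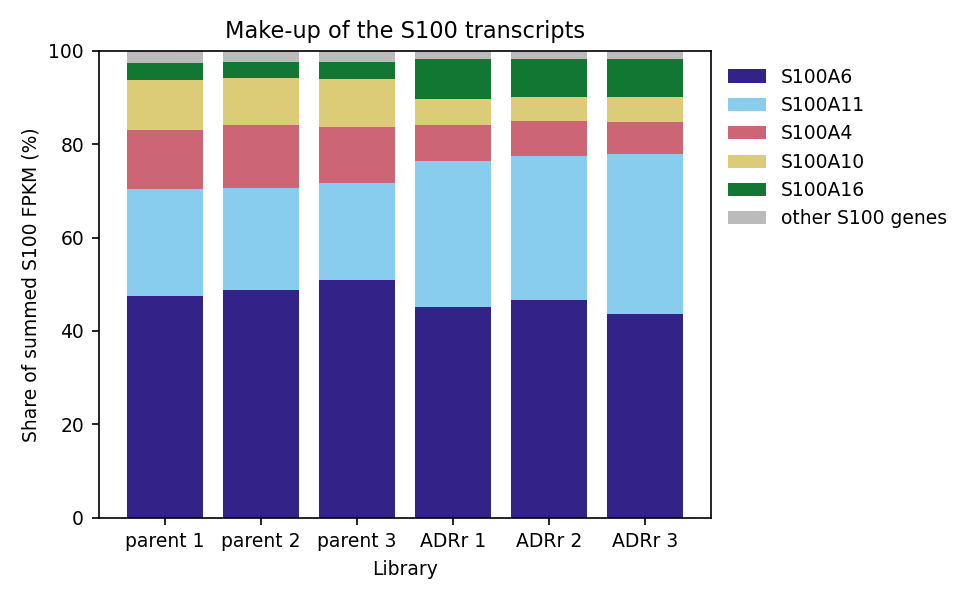
Share of the summed S100 FPKM (percent, y axis) that each gene held in each of the 6 libraries (x axis), as stacked bars. S100A6 was the largest share in each library, S100A11 and S100A16 held more in the 3 ADRr libraries, and S100A4 and S100A10 held less.

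The make-up of that total moved with the changes of S100A11, S100A16 and S100A4. S100A6 held 49.1% ± 1.69 of the summed S100 FPKM in parent cells and 45.1% ± 1.5 in ADRr cells (SD, n = 3 each here and below). S100A11 went from 21.9% ± 1.02 to 32.2% ± 1.90, and S100A16 from 3.54% ± 0.138 to 8.20% ± 0.207. In the other direction, S100A4 went from 12.7% ± 0.639 to 7.33% ± 0.515, and S100A2 from 1.46% ± 0.0154 to 0.426% ± 0.0685. S100A3 went from 0.677% ± 0.0228 to 0.993% ± 0.00852, and S100A13 held less than S100A3 in each library. Shares of a sum depend on each other, so a share can fall because another gene rose.

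The other S100 genes that could be tested were S100A10, S100A1 and S100A5. S100A10, the p11 subunit that joins annexin A2 in a complex at the plasma membrane, had counts of 6918, 6498 and 7517 in parent and 4266, 3850 and 4155 in ADRr libraries. It fell by 0.84 on the log2 scale (SE 0.048, edgeR adjusted p = 5.2e-13), and its share of the S100 FPKM went from 10.4% ± 0.442 to 5.39% ± 0.183. S100A1, the calcium sensor of muscle, had a log2 fold change of -0.41 (edgeR adjusted p = 0.466) on 7 to 16 counts a library. S100A5 had a log2 fold change of 0.06 (edgeR adjusted p = 0.832) on 37 to 45 counts. Of the 11 further S100 genes, 5 had 0 counts in all 6 libraries, among them the psoriasin gene S100A7, the neutrophil gene S100A12 and S100B.

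Along chromosome 1, members with opposite changes were neighbors. Read from S100A6 in the direction of rising coordinates, S100A4 fell, S100A3 rose, S100A2 fell, S100A16 rose and S100A13 rose. S100A2 and S100A16, the pair with the largest changes, lie 39.0 kb apart. S100A10 and S100A11 form a separate pair, with a 1309.9 kb gap to S100A9, and they also differed in direction, with log2 fold changes of -0.84 and 0.66. Between S100A9 and S100A7, no S100 gene had enough counts for a test. All of the members on chromosome 1 except S100A9 lie on the minus strand.

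**Figure D3:**
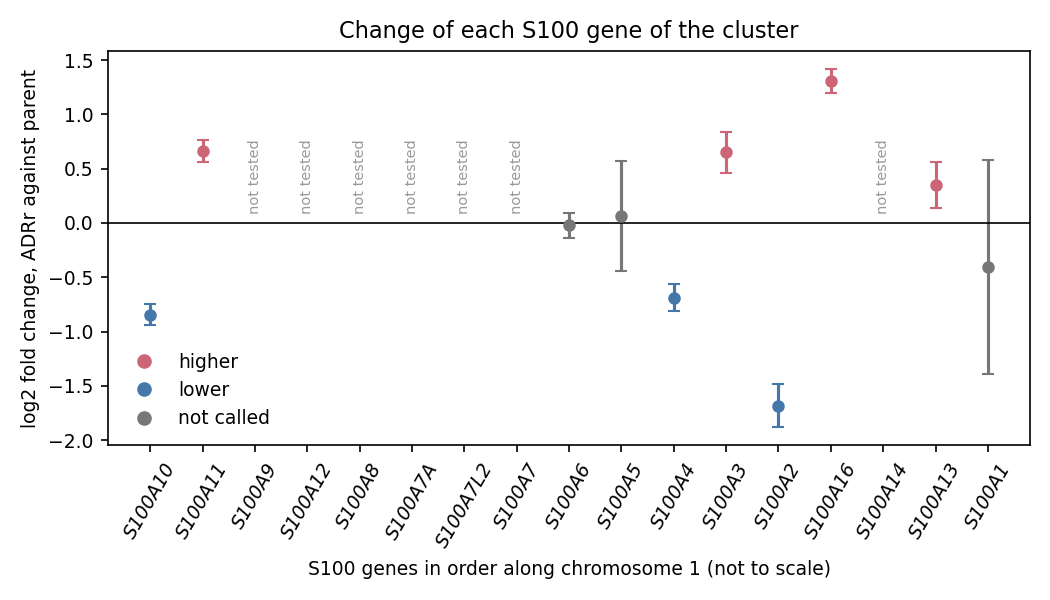
Log2 fold change of ADRr against parent cells (y axis) for the S100 genes in their order along chromosome 1 (x axis, not to scale), with 95% intervals of the edgeR fit. Red genes were called higher and blue genes lower, and both kinds alternate between S100A4 and S100A16.

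Other genes at the cluster were called in either direction at shares near those of all tested genes. Within 250 kb on either side of the cluster and between its S100 genes, the table lists 110 genes, of which 17 were tested. Of these, 5 were called higher (29.4%, beside 29.2% of all tested genes) and 6 lower (35.3%, beside 29.6%), with a median log2 fold change of -0.22. The largest increases were those of BX470102.2 (log2 fold change 1.2, edgeR adjusted p = 0.00040), BX470102.1 (1.06, adjusted p = 0.0074) and TDRKH, a gene of the piRNA pathway (0.85, adjusted p = 3.0e-07). The count of BX470102.1 may hold reads of S100A6, with which it overlaps. BX470102.2 ends at chr1:153606283 on the minus strand, just below the span of S100A16 on the same strand, which starts at 153606886. Whether BX470102.2 changed apart from S100A16 was not tested. Filaggrin (FLG), a protein of the skin barrier, had the largest decrease (-1.97, edgeR adjusted p = 7.8e-17).

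Of the receptors and effectors through which released S100 proteins are known to act, 8 of 9 were tested. Of these, 2 were called higher (25% of those tested, beside 29.2% of all tested genes) and 3 were called lower (37.5%, beside 29.6%), and the median log2 fold change was -0.23, in which embigin (EMB) ranks lowest also at its bound. TLR4, a receptor of S100A8 and S100A9, had counts of 207, 209 and 167 in parent and 627, 569 and 637 in ADRr libraries. It rose by 1.57 on the log2 scale (SE 0.11, edgeR adjusted p = 9.5e-12) to a mean of 2.57 FPKM, a low level. Basigin (BSG), which binds S100A9, rose by 0.32 (SE 0.051, edgeR adjusted p = 1.1e-05) from 163 to 204 FPKM. ALCAM had a log2 fold change of -1.28 (SE 0.056, edgeR adjusted p = 5.4e-15), from 59.5 to 24.5 FPKM. That of NPTN was -1.02 (SE 0.054, edgeR adjusted p = 1.4e-13), from 50.6 to 25.1 FPKM. Embigin, a relative of basigin that is also known as a receptor of S100A8 and S100A9, had 112, 130 and 172 counts in parent and 0, 3 and 2 counts in ADRr libraries. The parent mean of embigin, 141 ± 26.1 normalized counts (SD), was 47.0 times the floor of 3 counts per library. This ratio serves as its bound here and leaves out the spread between parent libraries. RAGE (AGER), the receptor shared by most released members, was not called, with a log2 fold change of -0.49 (SE 0.31, edgeR adjusted p = 0.162) and ADRr counts of 18, 53 and 56. In the same cells the ligands S100A8 and S100A9 were not detectable, while S100A4, S100A6 and S100A11 were each at 202 FPKM or more.

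All 16 intracellular binding partners were tested, with 3 called higher (18.8%, beside 29.2% of all tested genes), 7 called lower (43.8%, beside 29.6%) and a median log2 fold change of -0.15. The largest change was that of interleukin-1 alpha (IL1A), a cargo of S100A13. Its counts were 341, 382 and 287 in parent and 13999, 12048 and 14119 in ADRr libraries, a log2 fold change of 5.23 (SE 0.085, edgeR adjusted p = 2.5e-22). Synaptotagmin 1 (SYT1), found with S100A13 in the FGF1 release complex, rose by 2.23 (SE 0.25, edgeR adjusted p = 5.5e-08) from a mean of 0.173 to 0.821 FPKM. FGF1 itself had 42 to 67 counts a library and a log2 fold change of 0.15 (edgeR adjusted p = 0.586). S100A13, as given above, rose by 0.35.

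Liprin beta-1 (PPFIBP1), a target of S100A4, rose by 1.40 (SE 0.067, edgeR adjusted p = 2.6e-14), whereas the S100A4 target nonmuscle myosin heavy chain (MYH9) fell by 0.72 (SE 0.045, edgeR adjusted p = 3.2e-12). S100A4 itself had a log2 fold change of -0.69 in the same libraries. CACYBP, the partner of S100A6, fell by 0.58 (SE 0.054, edgeR adjusted p = 3.2e-09), while S100A6 was not called.

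Annexins are calcium-dependent membrane-binding proteins, several of which pair with an S100 dimer. Of 13 annexin genes 11 were tested, with 2 called higher (18.2%, beside 29.2% of all tested genes), 4 called lower (36.4%, beside 29.6%) and a median log2 fold change of -0.20. ANXA4 rose by 1.02 (SE 0.068, edgeR adjusted p = 9.7e-12) and ANXA7 by 0.56 (SE 0.054, edgeR adjusted p = 6.0e-09). ANXA8L1 had the largest decrease with -2.43, but its count is uncertain because ANXA8, with -2.19, is a near-identical copy. ANXA1, the partner of S100A11, had a log2 fold change of 0.13 (SE 0.051, edgeR adjusted p = 0.025), below the fold threshold, beside the 0.66 of S100A11. ANXA2, the partner of S100A10 and S100A4, fell by 0.42 (SE 0.041, edgeR adjusted p = 6.8e-09), and both of these S100 genes fell as well.

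**Figure D4:**
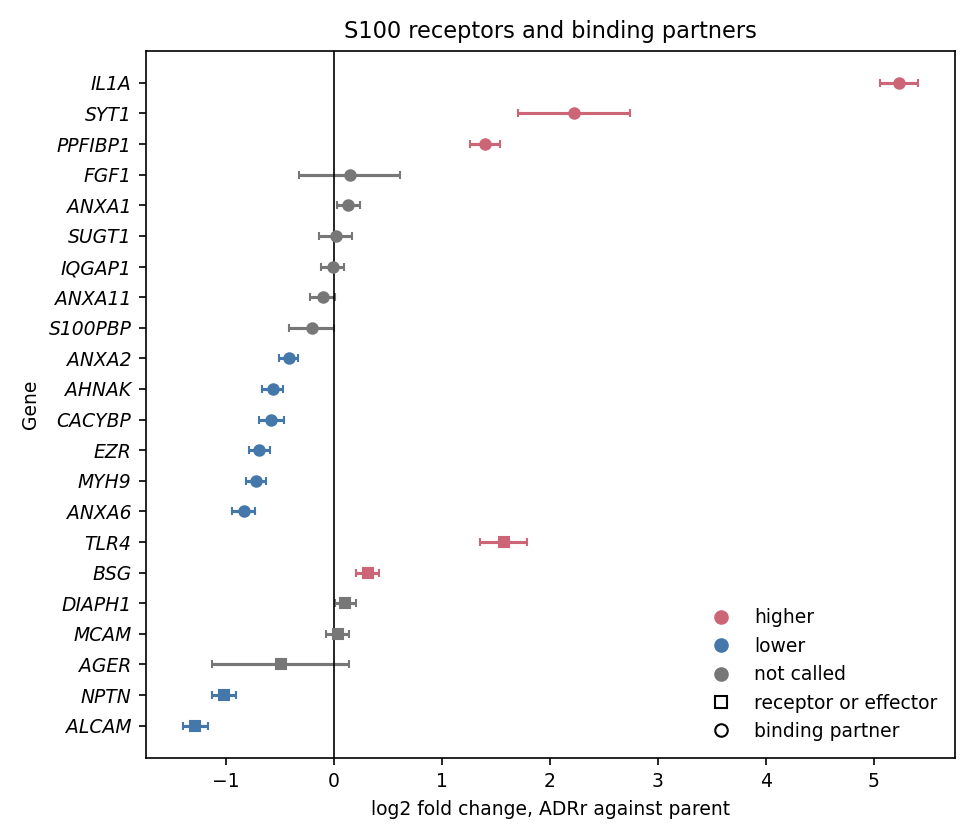
Log2 fold change of ADRr against parent cells (x axis) with 95% intervals of the edgeR fit for tested binding partners (circles) and receptors or effectors (squares) of S100 proteins, one gene per line. Red genes were called higher, blue genes lower and grey genes were not called, IL1A is the farthest to the right at 5.23, and EMB, at the floor in ADRr cells, is left out.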

How the data were processed

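Per the labels and the methods of the study, polyadenylated RNA of 3 parent and 3 ADRr libraries was sequenced as paired-end reads, mapped with HISAT2 2.0.5 and counted with featureCounts 1.5.0-p3 (versions and GRCh38 from the submitters' processing notes, which also name fastp and DESeq2 1.20.0). The sample records give another amount of input RNA than the methods. The authors deposited raw counts per gene and FPKM. FPKM equals count over gene length and over a read number 0.905 to 3.10% above the library total. Gene lengths are those of GENCODE 29.

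Counts were compared between groups with edgeR 4.0.16 in R 4.3.3 (TMM factors 0.987 to 1.01, filterByExpr, quasi-likelihood test), over all 15242 genes kept. FPKM served for levels between genes. The alternatives were other scalings, filters and thresholds, DESeq2 1.42.0, limma-trend (3.58.1) on log2 FPKM with pseudocounts of 1 and 0.1, a replicate block and each library left out. Named genes were all members, other S100 genes tested and, in each list, the 3 genes called with the highest increase and the 1 with the strongest decrease. Of the genes that this rule selects, 1 is not reported here. AGER, ALCAM, NPTN, FGF1, ANXA1, ANXA2, MYH9, CACYBP and ITGAM were added after their values were seen. Members and lists were chosen with earlier results of these data known. No library was a near copy of another, since chi-square divided by its degrees of freedom was 2.52 to 7.71 for pairs of the same group.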

Additional observations from a re-analysis of the deposited data

How the results depend on the processing

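The log2 fold changes of the 7 tested members were recomputed under 14 alternatives each, and 95 of the 98 values kept their direction and their side of the threshold. The other 3 were changes of sign of S100A6, which was not called in any of them, with 0.0055 on library size alone and a range from -0.081 to 0.041 when single libraries were left out. A threshold of 1.2 on the log2 scale left 1 member called higher (S100A16) and 1 called lower (S100A2), and of all genes 1114 higher and 972 lower. It also left 0 other S100 genes called lower, 1 receptor called higher, 0 binding partners called lower, 0 annexins called higher and 2 lower, and 0 genes beside the cluster called higher and 1 lower, since it is a stricter rule. With no filter on low counts, 8 genes beside the cluster were called higher and 8 were called lower. The family share on the log2 scale, 0.080, stayed between 0.044 and 0.113. With a replicate block, 4 members were called higher and 2 lower, as without it. Deviations of libraries with the same number had correlations from -0.046 to 0.0074. No shared effect of the number was thus seen, but whether such libraries were prepared together cannot be told from this. The ratio of S100A8 to S100A9 was not run because no library had both genes above 0. Depth limits S100A8, S100A9 and S100P, for which no difference under 3 counts a library can be seen.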
